A study of Mus musculus with 15 samples.

Results

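The MiT transcription factors Tfe3, Tfeb, Mitf and Tfec were examined in mouse kidney together with Prcc, the gene that supplies the other part of the PRCC-TFE3 fusion, and Cdh16, the gene whose promoter drives Cre in these mice. These 6 genes, of 22180 measured under a single gene symbol, were taken by name, with earlier results of these data known. Each had exactly 1 entry on the array that named it and no other gene. Every mouse carried a PRCC-TFE3 knock-in at Rosa26, behind a stop cassette that Cre removes (Rosa26-LSL-PRCC-TFE3). Cre-positive (Cre+) mice also carried KSP-Cre, and Cre-negative (Cre-) mice did not. Whole kidneys were profiled from 4 Cre- and 4 Cre+ mice at 4 months of age and from 3 Cre- and 4 Cre+ mice at 7 months, with 1 Affymetrix Mouse Gene 2.0 ST array per mouse. Mice with KSP-Cre alone were not among the groups, and the fusion's effects and those of Cre therefore cannot be told apart.

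MiT factors are basic helix-loop-helix leucine zipper proteins that bind DNA as pairs, with each other but not with the related MYC family, at the sequence CACGTG and close variants. In fed cells the Rag GTPases and mTORC1 at the lysosome keep Tfeb and Tfe3 phosphorylated in the cytoplasm. When that signal falls, or when folliculin is lost, they enter the nucleus and switch on genes of lysosomes and autophagy. In Xp11.2 translocation renal cell carcinoma TFE3 is joined to a partner such as PRCC, a nuclear protein linked to splicing, and the partner's promoter then drives the fusion. Cdh16 encodes Ksp-cadherin, an adhesion protein of kidney tubule epithelium, which is why its promoter is used to direct Cre there.

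Values are log2 expression as deposited, and a difference of 1 stands for a fold of 2. Array medians lay between 4.40 and 4.55, and pairs of arrays correlated across genes at 0.983 to 0.994 within groups and 0.958 to 0.994 between groups. Markers of proximal tubule (14 genes) averaged 9.67 to 10.99 and those of the thick ascending limb (9 genes) 8.71 to 9.29 over the 4 groups, so defining kidney markers were present in each. Sex is not among the labels. The mean of 3 Y-linked genes was 6.92 or above in 8 arrays and 2.98 or below in 7, with 2 of each kind in every group except the 7-month Cre- group, which held 2 high and 1 low. Over all genes, limma called 784 of 22180 at 4 months (606 higher and 178 lower in Cre+ kidneys) and 4991 at 7 months (2597 higher and 2394 lower) at an adjusted p of 0.05. Centring each array on its median turned the share of higher calls from 77.3% to 49.3% at 4 months and from 52.0% to 39.3% at 7 months. Leaving out Cre- mouse 1 or 3 or Cre+ mouse 2, 3 or 4 lowered the 4-month count to between 469 and 500.

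At 4 months 0 of the 6 genes passed the test in either direction, against 3.53% of all genes, and 1 of 6 had an unadjusted p below 0.05 (limma). At 7 months 0 rose and 2 of 6 fell, Tfec and Cdh16, against 22.5% of all genes called, and 3 of 6 had an unadjusted p below 0.05 (limma). The share of all genes below that unadjusted p was not counted, here or for the comparisons between ages. The median difference of the 6 genes was -0.13 at 4 months and -0.25 at 7 months, beside 0.05 and -0.04 over all genes. Values of Cre+ and Cre- kidneys did not overlap for 1 of the 6 genes at 4 months, where 9.46% of all genes did not overlap, and for 3 of the 6 at 7 months, where the share of all genes was 29.2%. The count of 2 in 6 at 7 months is thus read against a background in which more than 1 gene in 5 was called.

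**Figure D1:**
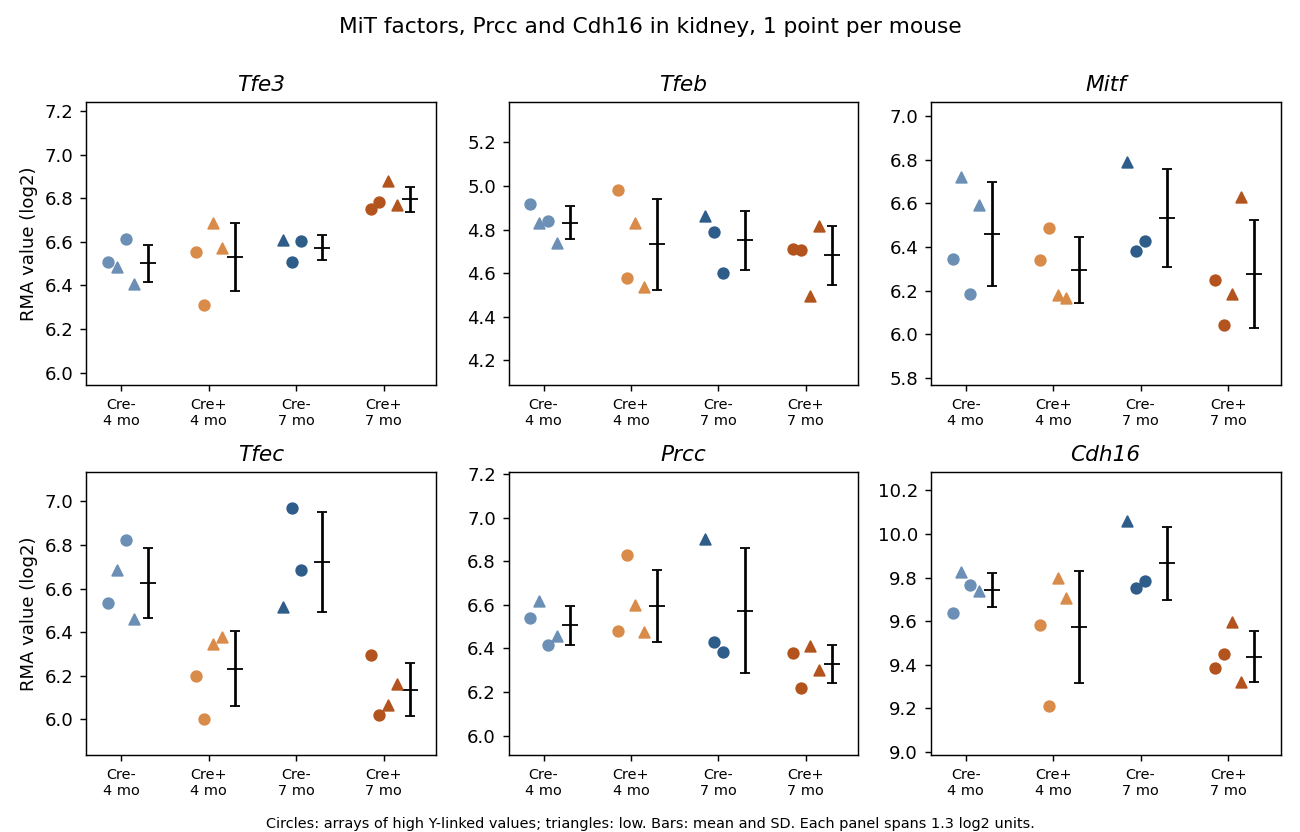
Log2 RMA values of Tfe3, Tfeb, Mitf, Tfec, Prcc and Cdh16, 1 point per mouse, in the Cre- (blue) and Cre+ (orange) groups at 4 and 7 months; circles are arrays with high and triangles arrays with low Y-linked values, and bars give the mean and SD. Each panel spans the same 1.3 log2 units on its own level. The 8 Cre+ Tfec values (6.003 to 6.38) sit below all 7 Cre- values (6.46 to 6.97), and the share of all genes so split was not counted.

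Tfe3, the factor that the fusion contains, was examined first. At 4 months Cre- kidneys had log2 values of 6.51, 6.48, 6.61 and 6.41 and Cre+ kidneys 6.55, 6.31, 6.68 and 6.57. At 7 months Cre- kidneys had 6.61, 6.51 and 6.60 and Cre+ kidneys 6.75, 6.78, 6.88 and 6.77. The 4-month groups overlapped throughout, whereas each of the 4 Cre+ values at 7 months (6.75 to 6.88) lay above all 11 other arrays (6.31 to 6.68). How many of all genes do so was not counted. The difference at 4 months was 0.03 (SE 0.09, 95% interval -0.17 to 0.23, adjusted p = 0.924, limma). It turned to -0.06 when arrays were centred on their medians and to -0.0055 when they were quantile normalized, so it had no settled direction. At 7 months Tfe3 was 0.22 higher with Cre (SE 0.10, 95% interval 0.01 to 0.43), a ratio of 1.17, with an unadjusted p of 0.0442 and an adjusted p of 0.139 (limma), and did not pass. With arrays centred on their medians it was 0.15 (adjusted p = 0.28). Of all 22180 genes, 44.7% differed by more at that age. The sources used here do not say which parts of Tfe3 and Prcc the probes match or from which species the knock-in was taken. The values of these genes therefore do not show whether the fusion transcript was made.

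Tfec differed most among the 4 MiT factors in size, and it was lower in Cre+ kidneys at both ages. Its product is the family's least studied member and is best known from macrophages. At 4 months the Cre- values were 6.53, 6.68, 6.82 and 6.46 and the Cre+ values 6.20, 6.003, 6.35 and 6.38. At 7 months they were 6.52, 6.97 and 6.68 in Cre- and 6.29, 6.02, 6.07 and 6.16 in Cre+ kidneys. The groups did not overlap at either age, as held for 9.46% of all genes at 4 months and 29.2% at 7 months. The 8 Cre+ kidneys lay below all 7 Cre- kidneys, and the share of all genes so split was not counted. Tfec fell by 0.59 at 7 months (SE 0.13, 95% interval -0.87 to -0.31, adjusted p = 0.00314, limma), which made it 1.504-fold lower in Cre+ kidneys, lower in 4 of 4 mice. The 4-month difference was -0.39 (SE 0.12, 95% interval -0.65 to -0.14), with an unadjusted p of 0.00499 and an adjusted p of 0.0944 (limma), and of 12 alternatives it passed only with each array centred on its median (-0.48, adjusted p = 0.0313), and within arrays of low Y-linked values it was -0.21 (adjusted p = 0.539). At 4 months 1868 of 22180 genes differed by more than Tfec, and at 7 months 3105 did. The call at 7 months held without each of the 7 mice in turn, at -0.69 to -0.47. Within the arrays of low Y-linked values, which held 1 Cre- mouse at 7 months, it was -0.40 (adjusted p = 0.21, limma) and did not pass.

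Because Tfec was the MiT factor that passed the test, the 250 bases before its RefSeq start site are shown (GRCm38.p6, chr6:16898442-16898691, minus strand, 5′ to 3′). They are in lower case throughout, since none of the MiT motifs searched is in them.
Tfec: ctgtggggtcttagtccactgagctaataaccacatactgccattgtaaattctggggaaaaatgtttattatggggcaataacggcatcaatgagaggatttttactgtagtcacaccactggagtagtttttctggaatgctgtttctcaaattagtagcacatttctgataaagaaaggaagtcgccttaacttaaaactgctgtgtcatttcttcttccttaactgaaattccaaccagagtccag
Both strands were searched, from 250 bases before to 50 after each start site. The first motif was CACGTG. The second was CATGTG, which reads CACATG on the other strand. The third was TCACGTGA, whose inner bases are the first motif. Of 32851 mouse promoters in the RefSeq table, 7.15% held CACGTG, 14.2% held CATGTG and 0.974% held TCACGTGA. The table had 2 promoters for Tfe3, 3 for Tfeb, 3 for Mitf and 1 each for Tfec and Prcc, and none of the 3 motifs was in any of them. For Cdh16 no promoter was matched.

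Mitf, the factor of melanocytes, osteoclasts and mast cells, did not pass the test at either age. Cre- values were 6.34, 6.72, 6.19 and 6.59 at 4 months and 6.79, 6.38 and 6.43 at 7 months. Cre+ values were 6.34, 6.49, 6.18 and 6.17 at 4 months and 6.25, 6.04, 6.18 and 6.63 at 7 months. The groups overlapped at both ages. The differences were -0.17 at 4 months (SE 0.15, 95% interval -0.47 to 0.14, adjusted p = 0.637) and -0.26 at 7 months (SE 0.16, 95% interval -0.59 to 0.08, adjusted p = 0.282, both limma). In Cre- kidneys only, as a description, Mitf values went with the Y-linked kind of the array. There the 3 arrays of low Y-linked values stood at 6.59 to 6.79 and the 4 of high values at 6.19 to 6.43, without overlap. The share of all genes that split this way was not counted. In Cre+ kidneys the 2 kinds overlapped, at 6.17 to 6.63 and 6.04 to 6.49. Their means, low and high, were 6.17 and 6.41 at 4 months and 6.41 and 6.15 at 7 months. Within the arrays of high Y-linked values alone the 4-month difference was 0.15, of the opposite sign (adjusted p = 0.715), and within those of low values -0.48 (adjusted p = 0.136). Single mice also moved it: without Cre- mouse 2 it was -0.08 (adjusted p = 0.871), without Cre- mouse 3 -0.26, and with arrays centred on their medians -0.25. The 7-month value was -0.13 without Cre- mouse 1 (adjusted p = 0.668).

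Tfeb, the main driver of lysosome formation in many cell types and itself a fusion gene in another form of renal carcinoma, had values close above the arrays' medians and did not pass the test at either age. At 4 months Cre- kidneys had 4.92, 4.83, 4.84 and 4.74 and Cre+ kidneys 4.98, 4.58, 4.83 and 4.54. At 7 months Cre- kidneys had 4.86, 4.79 and 4.60 and Cre+ kidneys 4.71, 4.70, 4.49 and 4.82. All 4 groups overlapped, and the Cre+ values spread more widely than the Cre- values at 4 months (SD 0.21 against 0.07, untested). The differences were -0.10 at 4 months (SE 0.11, 95% interval -0.34 to 0.14, adjusted p = 0.726) and -0.07 at 7 months (SE 0.12, 95% interval -0.33 to 0.19, adjusted p = 0.748, both limma). These small values moved with single mice, from -0.18 to -0.04 at 4 months and from -0.15 to -0.0076 at 7 months, and were -0.19 and -0.14 with arrays centred on their medians. The intervals of Mitf and Tfeb at 7 months both reach into that of Tfec, that of Tfeb barely (down to -0.33, against -0.31 at the upper end for Tfec). No difference between genes was tested. The passing of Tfec and not of Mitf or Tfeb is therefore not itself a test of a difference between them. A filter that keeps genes above 4.90 (the median of named entries) in at least 3 arrays removed Tfeb and kept the other 5 genes.

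Prcc, the fusion partner, is a nuclear protein found with splicing factors and a partner of the mitotic checkpoint protein Mad2l2. Its Cre- values were 6.54, 6.62, 6.42 and 6.46 at 4 months and 6.90, 6.43 and 6.39 at 7 months. Its Cre+ values were 6.48, 6.83, 6.60 and 6.48 at 4 months and 6.38, 6.22, 6.41 and 6.30 at 7 months. The groups overlapped at both ages, and at 7 months Cre- mouse 1 stood alone at 6.90 while the other 2 Cre- mice lay just above or within the Cre+ range. The difference was 0.09 at 4 months (SE 0.12, 95% interval -0.16 to 0.34, adjusted p = 0.776) and -0.25 at 7 months (SE 0.13, 95% interval -0.52 to 0.03, adjusted p = 0.201, both limma). Without Cre- mouse 1 the 7-month value was -0.08 (adjusted p = 0.711), and it was -0.11 within arrays of high and -0.55 within arrays of low Y-linked values (adjusted p = 0.677 and 0.0581). The 4-month value was 0.01 without Cre+ mouse 2 and 0.0013 with arrays centred on their medians. Mad2l2 had differences of 0.00 at both ages (adjusted p = 0.995 and 1).

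Cdh16 was 1.35-fold lower in Cre+ than in Cre- kidneys at 7 months. At 4 months Cre- kidneys had 9.64, 9.83, 9.77 and 9.74 and Cre+ kidneys 9.58, 9.21, 9.80 and 9.71. At 7 months Cre- kidneys had 10.06, 9.75 and 9.78 and Cre+ kidneys 9.38, 9.45, 9.59 and 9.32. The 4-month groups overlapped, with Cre+ mouse 2 alone well below the rest, and the 7-month groups did not. Its 7-month difference of -0.43 passed the test (SE 0.13, 95% interval -0.71 to -0.15, adjusted p = 0.0256, limma), lower in 4 of 4 mice, and 21.7% of all genes differed by more. At 4 months the difference was -0.17 (SE 0.12, 95% interval -0.42 to 0.09, adjusted p = 0.548), and it was -0.05 without Cre+ mouse 2, -0.26 with arrays centred on their medians, and -0.30 and -0.03 within arrays of high and low Y-linked values. The 7-month call was lost without Cre- mouse 1 (-0.33, adjusted p = 0.127), without Cre+ mouse 1 (-0.41, adjusted p = 0.0574), without Cre+ mouse 4 (-0.39, adjusted p = 0.0701), after quantile normalization (-0.25, adjusted p = 0.185) and within arrays of high Y-linked values (-0.35, adjusted p = 0.132, all limma). In whole kidney, fewer cells of a type and less RNA per cell cannot be told apart, here and for the genes that follow. The sources used here do not say whether the Cdh16 probes also match the transgene.

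**Figure D2:**
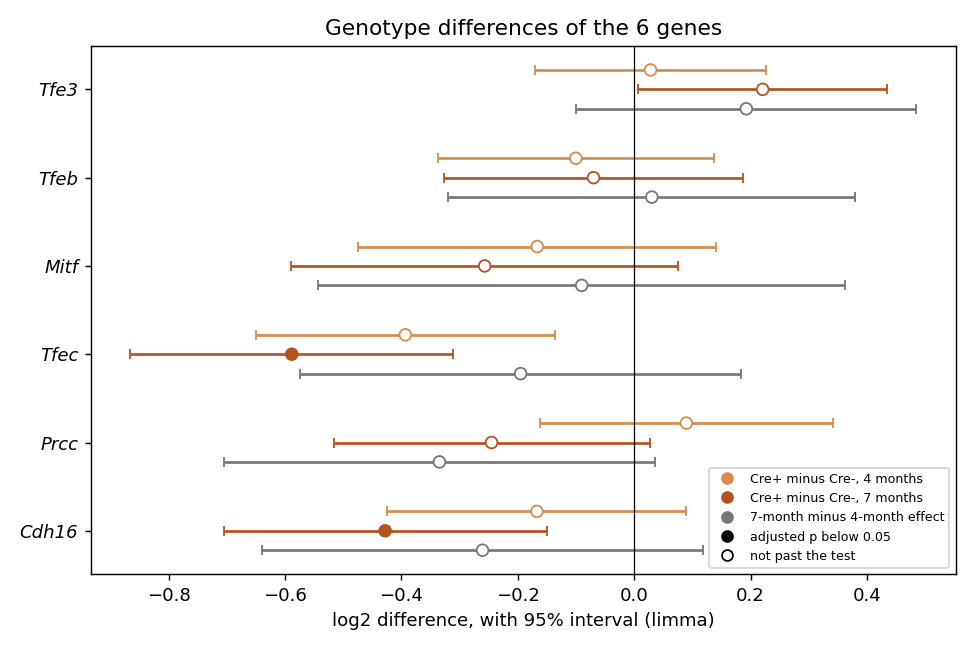
Differences on the log2 scale (x axis) of the 6 genes (y axis), Cre+ minus Cre- at 4 months and at 7 months and the 7-month minus the 4-month difference, with 95% intervals from limma; filled points have an adjusted p below 0.05. Tfec (-0.59) and Cdh16 (-0.43) at 7 months are the filled points, and every interval of the difference between ages spans 0.

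The ages were compared next. The Cre difference at 7 months minus that at 4 months passed for 0 of the 6 genes, against 2.14% of all genes, and 0 had an unadjusted p below 0.05 (limma). It was 0.19 for Tfe3 (95% interval -0.10 to 0.48, adjusted p = 0.525), -0.20 for Tfec (-0.57 to 0.18, adjusted p = 0.633), -0.33 for Prcc (-0.70 to 0.04, adjusted p = 0.367) and -0.26 for Cdh16 (-0.64 to 0.12, adjusted p = 0.501), and 0.03 for Tfeb and -0.09 for Mitf. So the calls of Tfec and Cdh16 at 7 months alone were not shown to be particular to that age. In Cre- kidneys the 7-month minus 4-month differences ran from -0.08 (Tfeb) to 0.12 (Cdh16), with 0 of 6 called, 0 at an unadjusted p below 0.05 and 0.00451% of all genes called. In Cre+ kidneys 0 of 6 passed against 10.8% of all genes, and 2 had an unadjusted p below 0.05 (limma). These were Tfe3, at 0.26 (SE 0.09, adjusted p = 0.0827), and Prcc, at -0.27 (SE 0.12, adjusted p = 0.165). The Tfe3 value passed with arrays centred on their medians (0.29, adjusted p = 0.0497) and in the plain linear model (0.26, adjusted p = 0.0448).

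In order of group means, Tfe3 went from Cre- at 4 months (6.50 ± 0.09 SD, n = 4) through Cre+ at 4 months (6.53 ± 0.16, n = 4) and Cre- at 7 months (6.57 ± 0.06, n = 3) to Cre+ at 7 months (6.79 ± 0.06, n = 4), and the ranges were apart at the last step alone. Tfec, Mitf and Cdh16 shared another order, lowest in Cre+ at 7 months, then Cre+ at 4 months, Cre- at 4 months and Cre- at 7 months. For Tfec these means were 6.13 ± 0.12, 6.23 ± 0.17, 6.63 ± 0.16 and 6.72 ± 0.23, and neighbouring ranges were apart only between the genotypes. For Mitf (6.28 ± 0.25, 6.29 ± 0.15, 6.46 ± 0.24, 6.53 ± 0.22) and Cdh16 (9.44 ± 0.12, 9.57 ± 0.26, 9.74 ± 0.08, 9.87 ± 0.17) all neighbours overlapped. Tfeb means ran from 4.68 ± 0.14 in Cre+ at 7 months to 4.83 ± 0.07 in Cre- at 4 months with every neighbour overlapping. Prcc was lowest in Cre+ at 7 months (6.33 ± 0.09), apart from Cre- at 4 months (6.51 ± 0.09), while Cre- at 7 months (6.57 ± 0.29) and Cre+ at 4 months (6.60 ± 0.17) overlapped with their neighbours.

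Some mice stood at the edge of their group for most of the genes. Cre+ mouse 2 at 4 months had its group's lowest Tfe3, Tfec and Cdh16 and highest Mitf and Prcc values, 5 of the 6 genes. Cre- mouse 1 at 7 months had the highest Tfe3, Tfeb, Mitf, Prcc and Cdh16 and the lowest Tfec of its 3 mice, 6 of 6, and it was the array of low Y-linked values in that group. These mice were picked for the highest counts, and such places are common in groups of 3 or 4. Cre- mouse 3 and Cre+ mouse 4 at 4 months held them for 4 of 6 genes, as did Cre- mouse 2 and Cre+ mouse 3 at 7 months. None of the 18 sets of 4 values met Dixon's criterion for an outlier. The 3 Cre- mice at 7 months, a group too small for that criterion, were not tested.

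Genes whose values followed each member most closely were found over the 15 arrays by Pearson's r, as a description without a test, since arrays of 1 group share their genotype and age. Group differences enter this r, so the differences given for these genes follow in part from how they were picked. For Tfe3 they were Plec (0.924), a cytoskeletal linker, Myo9b (0.919), an unconventional myosin, and Sun2 (0.911), a nuclear envelope protein. Plec rose by 0.50 (adjusted p = 0.00557) and Myo9b by 0.59 (adjusted p = 0.00724) at 7 months. Plec did not pass within arrays of low Y-linked values (0.41), nor Myo9b within those of high values (0.49) or without Cre- mouse 2 (0.49). For Tfec they were Atxn7l2 (0.923), Myo15b (0.914) and Def8 (0.908), all of which fell at 7 months, by 0.94, 0.32 and 0.78 (adjusted p = 0.000334, 0.0261 and 0.00297, limma). Within arrays of low Y-linked values they were at -0.83, -0.30 and -0.54 and did not pass. Myo15b also did not pass within arrays of high values, with the replicate block, with 2 groups only, or without Cre- mouse 2 or Cre+ mouse 2 or 4 (-0.32 to -0.27). For Cdh16 they were Atp5h (0.937) and Atp5e (0.929), subunits of the mitochondrial ATP synthase that fell by 0.93 and 0.77 at 7 months (adjusted p = 0.00434 and 0.000984), and Tm7sf2 (0.928), an enzyme of cholesterol synthesis, at -0.29 (adjusted p = 0.0977). With the mean of a gene's entries Atp5h was at -0.48 (adjusted p = 0.059). The nearest genes were less close for Mitf (Aplp1, 0.838, Tmem50b, 0.808, Hey2, 0.742), Prcc (Pidd1, 0.826, Olfr71, 0.821, C2cd4d, 0.812) and Tfeb (Slitrk5, 0.817, Gad2, 0.772, Lyrm9, 0.770).

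Within groups other genes led. By correlation of deviations from the 4 group means, the closest to Tfec were Sod3 (0.913), Mettl7b (0.890) and Igfbp4 (0.874), which also fell at 7 months, by 1.18, 1.43 and 1.26 (adjusted p = 6.95e-06, 9.88e-07 and 1.34e-07, limma). Those closest to Tfe3 were Rbis (0.963), Nab2 (0.932) and Ap2m1 (0.920), and those closest to Cdh16 were Srrm2 (0.955), Ift27 (0.953) and Snora33 (0.946). For Mitf they were Scrg1 (0.862), Aplp1 (0.858) and Scn2b (0.853), for Prcc R3hdm4 (0.872), Zfp523 (0.870) and Zkscan4 (0.830), and for Tfeb Sst, Lrrc75b and Slitrk5 (each 0.82). Such closeness did not fix the direction of the Cre difference. At 7 months Rbis was at -0.45 (adjusted p = 0.0957, limma), against 0.22 for Tfe3. Snora33 rose by 0.43 (adjusted p = 0.0424, limma) while Cdh16 fell, a call lost with median centring and without Cre- mouse 2 or 3 or Cre+ mouse 2 or 3, among other settings. Of the pairs named for the 6 genes, Aplp1 with Mitf and Slitrk5 with Tfeb were among the 3 closest by both measures.

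Regulators that hold MiT factors at the lysosome or release them were measured for 23 of 24 genes listed. Beside the calls in this and later lists stand 3.53% of all genes called at 4 months and 22.5% at 7 months. At 4 months 6 rose and 0 fell, with a median of 0.12 beside 0.05 over all genes. At 7 months 9 rose and 4 fell, with a median of 0.17 beside -0.04. Rragd, a Rag GTPase, had 4-month means of 8.24 (Cre-) and 9.44 (Cre+), a rise of 1.20 (SE 0.11, adjusted p = 4.95e-06), and 7-month means of 8.24 and 9.74 (1.496, SE 0.12, adjusted p = 2.56e-07, limma). Rragc, its relative, rose by 0.59 and 0.72 (adjusted p = 0.00325 and 0.000183), and Mcoln1, the lysosomal calcium channel TRPML1, by 0.61 and 0.58 (adjusted p = 0.00557 and 0.00238). Rragc at 4 months was 0.49 within arrays of low Y-linked values (adjusted p = 0.109) and Mcoln1 at 7 months 0.36 within those of high values (adjusted p = 0.126), and neither passed there. Rragb rose by 0.89 and 1.29 (adjusted p = 0.0266 and 0.000515), but its 4-month value was 0.76 to 0.83 and did not pass without Cre- mouse 1 or 3 or Cre+ mouse 3 or 4, nor did it pass in the plain linear model or with 2 groups only (adjusted p = 0.101 and 0.0501). Flcn, folliculin, rose by 0.48 and 0.54 and its partner Fnip2 by 0.53 and 0.64 (adjusted p between 0.000119 and 0.00489 for both genes at both ages). At 4 months Flcn did not pass within arrays of either Y-linked kind (0.44 and 0.52), nor Fnip2 within those of low values (0.52). The kinase Mtor fell by 1.02 at 7 months (SE 0.24, adjusted p = 0.00495). Its 4-month difference was -0.42 (adjusted p = 0.381). Lamtor5, of the Ragulator scaffold, fell by 0.81 and Lamtor2 by 0.49 at 7 months (adjusted p = 0.00444 and 0.00936). Within arrays of low Y-linked values neither passed (-0.58 and -0.57), and within those of high values Lamtor2 did not (-0.45).

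**Figure D3:**
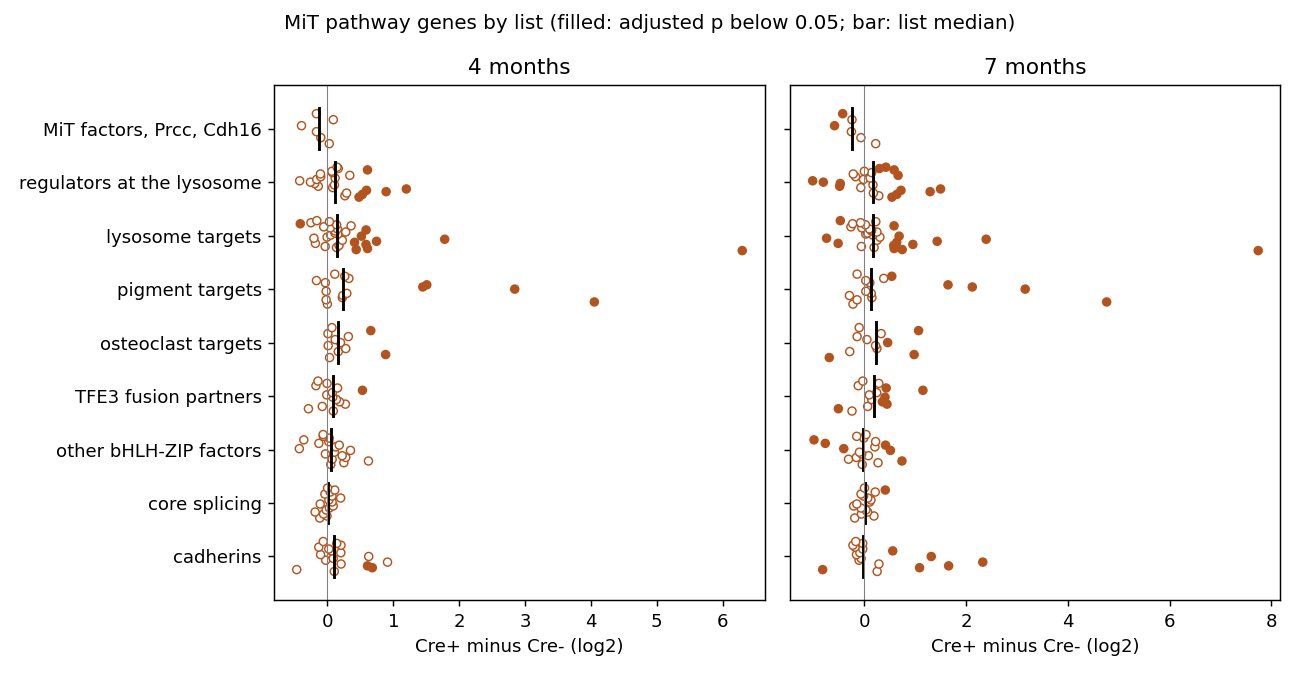
Differences, Cre+ minus Cre- on the log2 scale (x axis), at 4 and 7 months for every measured gene of 9 lists (y axis), filled where the adjusted p was below 0.05, with a bar at each list's median. The 6 genes of the top line lie between -0.59 and 0.22, while Gpnmb among the lysosome targets reaches 6.30 and 7.74.

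Known lysosome and autophagy targets of Tfeb and Tfe3 were measured for 30 of 33 genes. At 4 months 9 rose and 1 fell (median 0.15), and at 7 months 10 rose and 3 fell (median 0.18). Of all genes 3.53% and 22.5% were called at these ages. Gpnmb, a lysosomal glycoprotein used as a marker of MiT-driven renal tumours, rose from 4.46 to 10.76 at 4 months (6.30, SE 0.17, adjusted p = 1.48e-13) and from 4.41 to 12.16 at 7 months (7.74, SE 0.18, adjusted p = 3.22e-14, limma). Its Cre- means lay near the arrays' medians, on an array without detection calls, so these rises may be lower bounds. Hexa, a subunit of beta-hexosaminidase, rose by 1.78 and 2.39 (adjusted p = 1.05e-07 and 4.1e-09), and Gla, alpha-galactosidase, by 0.75 and 1.43 (adjusted p = 0.00142 and 6.83e-07), at 0.64 for Gla at 4 months within arrays of low Y-linked values (adjusted p = 0.0594). Wipi1, an autophagosome protein, fell by 0.41 at 4 months (adjusted p = 0.033), a call lost without any 1 of the 4 Cre- mice or Cre+ mouse 1 or 2 (-0.43 to -0.35), with 2 groups only (adjusted p = 0.0768) and within arrays of low Y-linked values (-0.21, adjusted p = 0.439), and was at -0.23 at 7 months (adjusted p = 0.157). Neu1, a sialidase of lysosomes, fell by 0.75 at 7 months (adjusted p = 0.00213). Ctsf, a cathepsin, fell by 0.52 there (adjusted p = 0.0164, 0.0744 without Cre- mouse 1, and 0.0502 within arrays of low Y-linked values). Ppargc1a, a coactivator of mitochondrial genes, fell by 0.47 (adjusted p = 0.0226), and was at -0.46 to -0.34 and did not pass without Cre- mouse 1 or Cre+ mouse 2 or 4. Nor did it pass after quantile normalization (-0.31, adjusted p = 0.125) or within arrays of high Y-linked values (-0.39, adjusted p = 0.068).

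The MiT motif was then looked for in the promoters of these genes, for comparison with its absence from those of the factors themselves. CACGTG was in a promoter of 7 of 21 regulators with a RefSeq promoter, 3 of them among the 9 that rose at 7 months (Mcoln1, Rragb and Rragc). It was in 13 of 26 lysosome targets, a list drawn up from known targets of factors that bind this motif. Of those 13, 3 (Ctsd, Gla and Mcoln1) were among the 9 that rose and had a promoter. Among all genes with a RefSeq promoter, 2187 of 27025 held CACGTG. TCACGTGA was in 1 of 21 regulators and 8 of 26 lysosome targets, against 304 of 27025 genes. CATGTG was in 2 of 21 and 6 of 26, against 4293 of 27025. Of the genes in these lists that fell at 7 months, Lamtor4 and Ctsf held CACGTG, and Mtor, Lamtor5, Lamtor2, Neu1 and Ppargc1a did not. The 30 bases around the matches of those 5 rising genes are shown, except for another match in Ctsd that lies too near the end of the window searched, 5′ to 3′ on the gene's strand (GRCm38.p6), with CACGTG in capitals. A match describes these letters and is not evidence of binding.
Rragb at chrX:153139819-153139848, plus strand: gagagcccgggcCACGTGatggcgggtggc
Rragb at chrX:153139910-153139939, plus strand: aaagggtagcggCACGTGacaggccctggg
Rragb at chrX:153139943-153139972, plus strand: acggcaggttccCACGTGatcctggcctgc
Rragc at chr4:123917309-123917338, plus strand: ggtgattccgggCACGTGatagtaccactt
Mcoln1 at chr8:3500436-3500465, plus strand: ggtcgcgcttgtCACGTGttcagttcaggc
Mcoln1 at chr8:3500462-3500491, plus strand: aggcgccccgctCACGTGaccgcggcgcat
Gla at chrX:134601215-134601244, minus strand: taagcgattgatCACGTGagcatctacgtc
Gla at chrX:134601182-134601211, minus strand: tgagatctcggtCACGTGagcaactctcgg
Ctsd at chr7:142387908-142387937, minus strand: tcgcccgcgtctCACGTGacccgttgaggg
Rragd, Gpnmb and Hexa, which rose by more than these genes, had no match to CACGTG in the windows searched.

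Genes tied to Mitf in melanocytes were measured for 15 of 16 listed, pigment genes together with Met, Bcl2, Cdk2 and Sox10. At 4 months 4 rose and 0 fell (median 0.23). At 7 months 5 rose, with Cdk2 among them, and 0 fell (median 0.13). Over all genes 3.53% were called at 4 months and 22.5% at 7 months. Mitf itself did not pass at either age. Of 10 genes in this list with a RefSeq promoter, 3 held CACGTG (Met, Rab27a and Trpm1) and 6 held CATGTG. Tyrp1, a melanosomal enzyme, rose by 4.05 and 4.76 (SE 0.26 and 0.28, adjusted p = 2.43e-08 and 5.68e-09, limma). Gpr143, a melanosomal receptor, rose by 2.84 and 3.16 (adjusted p = 7.32e-09 and 4.1e-09), Trpm1, a cation channel, by 1.45 and 2.12 (adjusted p = 0.000188 and 1.44e-06) and Rab27a, which moves melanosomes and other vesicles, by 1.51 and 1.64 (adjusted p = 5.76e-06 and 1.23e-06). Cre- means of Tyrp1 (3.57 and 3.87) and Gpr143 (3.83 and 3.66) were low on an array without detection calls, so these differences may be lower bounds. Of 6 markers taken to define melanocytes (Pmel, Tyr, Dct, Mlana, Sox10 and Ednrb) 0 passed at either age, with list means of 4.44 in Cre- and 4.57 and 4.30 in Cre+ kidneys. Among these, Pmel had 4-month means of 4.51 (Cre-) and 4.74 (Cre+) and Tyr of 3.07 in both genotypes. Tyrp1, Gpr143 and Trpm1, which rose, were not in that list, so its count depends on how the genes were listed. Whether melanocytes were present was not tested.

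Osteoclast genes that Mitf and Tfe3 act on gave 2 rises at 4 months and 3 rises and 1 fall at 7 months of 11 measured (medians 0.17 and 0.22, with 3.53% and 22.5% of all genes called). Ctsk, a collagen-cutting cathepsin, rose by 0.88 and 0.98 (adjusted p = 0.00264 and 0.000331), and its 4-month value was 0.61 within arrays of high Y-linked values (adjusted p = 0.0504). Itgb3, an integrin subunit, rose by 0.66 and 1.06 (adjusted p = 0.0226 and 0.000152, limma), though its 4-month value was 0.57 to 0.68 and did not pass without Cre- mouse 1 or 2 or Cre+ mouse 3 or 4. It did not pass in the plain linear model (adjusted p = 0.0725) or within arrays of high Y-linked values either (0.51, adjusted p = 0.13). Acp5, tartrate-resistant acid phosphatase, was at 0.03 at 4 months (adjusted p = 0.919) and fell by 0.69 at 7 months (adjusted p = 2e-04).

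Other genes known to fuse to TFE3 in human tumours were compared with Prcc, which is itself 1 of the 14 measured. At 4 months 1 rose and 0 fell and at 7 months 5 rose and 1 fell (medians 0.08 and 0.19, beside 0.05 and -0.04 over all genes, of which 3.53% and 22.5% were called). Nono, an RNA-binding protein of nuclear paraspeckles, rose by 0.44 at 7 months (SE 0.10, adjusted p = 0.00401). Parp14, an ADP-ribosyltransferase induced by interferon, rose by 0.53 and 1.15 (adjusted p = 0.0327 and 1.63e-05, limma), and its 4-month call was lost without any of 7 of the 8 mice (0.46 to 0.56, all but Cre+ mouse 1), in the plain linear model, with the replicate block and within arrays of either Y-linked kind (adjusted p = 0.074, 0.0512, 0.153 and 0.187). Fubp1, a DNA-binding protein, rose by 0.43 at 7 months (adjusted p = 0.0118, and 0.0632 without Cre- mouse 1). Aspscr1, the TFE3 partner in alveolar soft part sarcoma, fell by 0.51 (adjusted p = 0.0169), and was at -0.48 to -0.42 and did not pass without Cre- mouse 2 or 3 or Cre+ mouse 2. Within arrays of low Y-linked values it was -0.15 (adjusted p = 0.698). A list of the company in which Prcc is found, core splicing factors together with Mad2l2, was measured for 16 genes. Of these 0 passed at 4 months and 1 at 7 months, Srsf2, which rose by 0.41 (SE 0.10, adjusted p = 0.0056, limma). The list medians were 0.01 at both ages. Srsf2 did not pass within arrays of either Y-linked kind (0.37 and 0.38, adjusted p = 0.0558 and 0.119).

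The other basic helix-loop-helix leucine zipper factors, the family to which MiT factors belong, gave 0 calls of 18 at 4 months and 3 rises and 3 falls at 7 months (medians 0.06 and -0.03, with 3.53% and 22.5% of all genes called). Mlxipl, the glucose-responsive factor ChREBP, was among the latter, at -0.99 (SE 0.13, adjusted p = 3.09e-05). Its partner Mlx fell by 0.77 (adjusted p = 0.000449). Mxd4, an antagonist of Myc, rose by 0.51 (adjusted p = 0.0024, and 0.134 within arrays of low Y-linked values). Myc rose by 0.74 at 7 months (adjusted p = 0.00989, and 0.072 without Cre- mouse 2) and was at 0.62 at 4 months (adjusted p = 0.0681).

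Cadherins were compared with Cdh16, the kidney-specific member of that family. Of 17 others measured, 2 rose and 0 fell at 4 months and 5 rose and 1 fell at 7 months (medians 0.10 and -0.03, with 3.53% and 22.5% of all genes called). Cdh4 rose by 0.61 and 1.66 (SE 0.13 and 0.14, adjusted p = 0.0118 and 2.95e-07), and without Cre- mouse 3 its 4-month value was 0.54 (adjusted p = 0.053). With the mean of its entries Cdh4 was at 0.36 at 4 months, which did not pass (adjusted p = 0.0509), and at 0.85 at 7 months, which did (adjusted p = 1.56e-05). The 4-month value was 0.65 and 0.57 within arrays of high and low Y-linked values and passed in neither (adjusted p = 0.0642 and 0.123). Cdh6, a cadherin of the developing and proximal tubule, rose by 2.33 at 7 months (SE 0.44, adjusted p = 0.000822). Within arrays of low Y-linked values that rise was 1.44 (adjusted p = 0.00595). Its 4-month difference was 0.91 (SE 0.41, adjusted p = 0.275). Cdh11, a cadherin of mesenchyme, rose by 1.31 at 7 months (adjusted p = 9.41e-05), and Cdh2, N-cadherin of the proximal tubule, fell by 0.82 (adjusted p = 0.00108, limma). Cdh1, E-cadherin, was at 0.10 and 0.25 and did not pass at either age.

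Transcription factors of tubule identity gave 0 rises and 1 fall at 4 months and 1 rise and 6 falls at 7 months, of 14 measured (medians -0.07 and -0.14, with 3.53% and 22.5% of all genes called). Hnf4a, of the proximal tubule, was at -0.39 at 4 months (adjusted p = 0.0517) and fell by 1.25 at 7 months (SE 0.11, adjusted p = 6.36e-07). Esrrb, an orphan nuclear receptor of the distal nephron, fell by 0.89 and 1.38 (adjusted p = 0.00489 and 2.55e-05, with 0.0558 at 4 months within arrays of high Y-linked values), and Lhx1 fell by 0.95 at 7 months (adjusted p = 0.000246, limma). Irx2 rose by 0.83 at 7 months (adjusted p = 0.000862, and 0.0907 within arrays of low Y-linked values), and Pax8, present along the whole tubule, was at -0.06 at both ages.

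Markers of the cell types in a kidney moved beside Cdh16 and Tfec. Over all genes 3.53% were called at 4 months and 22.5% at 7 months. At 7 months 14 of 14 proximal tubule markers fell (list means 10.95 in Cre- and 9.67 in Cre+, arrays 10.93 to 10.97 and 9.38 to 9.89), as did 8 of 9 distal convoluted tubule markers (8.38 and 7.59). In the thick ascending limb 4 of 9 fell and 1 rose (9.29 and 8.71, arrays 9.12 to 9.46 and 8.64 to 8.75), and in the collecting duct 4 of 14 fell and 2 rose (7.52 and 7.28, arrays 7.31 to 7.64 and 7.21 to 7.34). At 4 months 3, 2, 3 and 0 markers of these 4 segments fell, and 0, 0, 1 and 1 rose. Macrophage markers went the other way from Tfec: 6 of 18 rose at 4 months (means 5.71 and 6.29, arrays 5.47 to 6.10 and 6.06 to 6.41) and 17 of 18 at 7 months (5.80 and 7.14, arrays 5.62 to 5.90 and 6.99 to 7.26), and 0 fell. Lyz2, a lysozyme of macrophages, rose by 1.19 and 2.21 (adjusted p = 0.00369 and 3.24e-06, limma). The part of these cell types in the Tfec and Cdh16 values was not tested. Lymphocyte markers rose for 1 and 6 of 9 and fibroblast markers for 4 and 5 of 9, with 0 falls. Of 5 podocyte markers 0 passed at 4 months and 3 fell at 7 months, and of 9 endothelial markers 0 passed and 3 fell. Of 9 mast cell markers, a cell type that depends on Mitf, Kit alone passed, higher at both ages, though its 4-month value of 0.91 was 0.69 and did not pass within arrays of high Y-linked values.

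**Figure D4:**
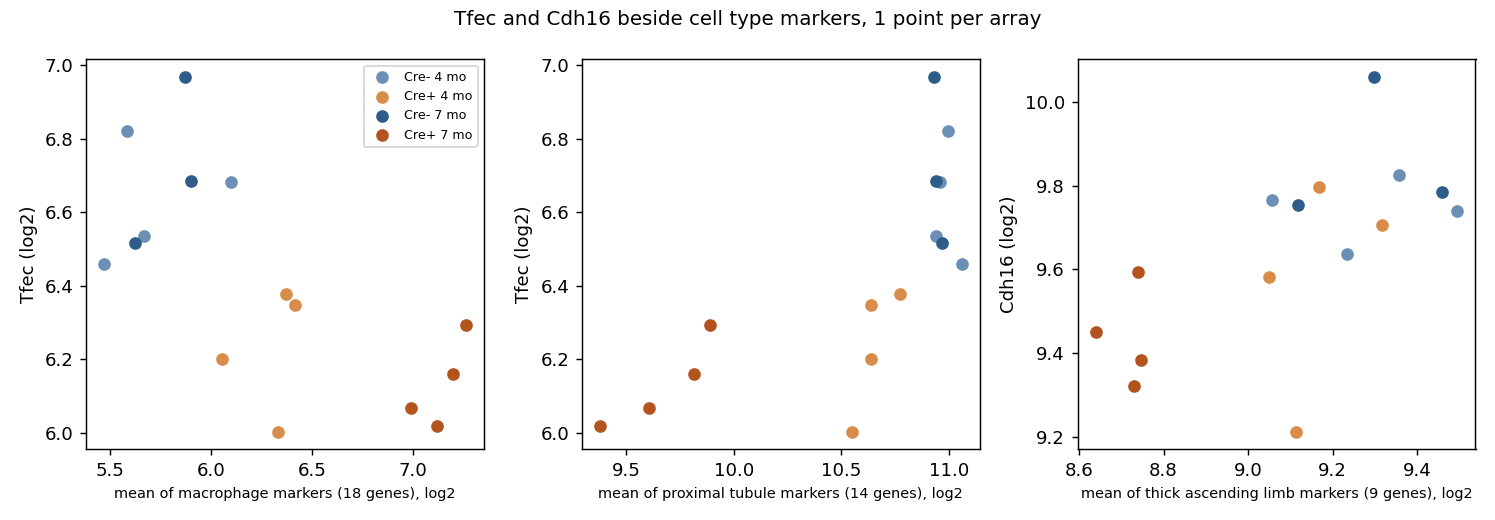
Log2 value of Tfec against the mean of 18 macrophage markers (left) and of 14 proximal tubule markers (middle), and of Cdh16 against the mean of 9 thick ascending limb markers (right), 1 point per array, coloured by group. The 4 Cre+ kidneys at 7 months lie apart on each marker axis (macrophage means of 6.99 or above, proximal tubule means of 9.89 or below, thick ascending limb means of 8.75 or below), while their Tfec values overlap with those of Cre+ kidneys at 4 months.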

How the data were processed

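Log2 expression values were deposited by the authors for 15 arrays, made with Partek 6.6 and RMA per the submitters' processing notes. The range of the values, 1.04 to 13.12, fits a log2 scale. The sources used here do not name the array's genome build. Of 41345 entries, 23521 carried 1 gene symbol, and 23328 of these were matched to RefSeq by Entrez identifier. For the 1082 genes with several such entries the one of highest mean was used, which left 22180 genes, with no filter on dim genes. Arrays measure hybridisation, so their number limits the precision. Each array is 1 mouse per the series design text, and p-values reflect the spread between mice.

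limma 3.58.1 (lmFit and eBayes, R 4.3.3) was fitted to all arrays with 4 group means and 5 two-sided contrasts, adjusted by Benjamini-Hochberg over all genes. The procedure was tested on simulated data. The study's own analysis of variance corresponds to the plain linear model, run as an alternative. The 6 genes and the gene lists were chosen with earlier results of these data known. The text could name, per list and Cre comparison, up to 3 risers and 3 fallers of largest size past the test (where none passed, at most 2 as values), and the 3 genes closest to each member by each correlation measure, predicted genes excepted; other gene names were chosen after their values were seen. Alternatives were a dim filter, array weights, median centring, quantile normalization, a variance trend with robust fitting, 2 groups only, replicate block, Y-linked mean as covariate, arrays of high or low Y-linked values, the mean of a gene's entries and each mouse left out. Promoter sequences are RefSeq's, GRCm38.p6. Tables and figures used Python 3.11.15, pandas 2.3.3, numpy 2.4.6 and matplotlib 3.10.9.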

Additional observations from a re-analysis of the deposited data

Results flagged for a closer look

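None of the 18 sets of 4 values of the 6 genes met Dixon's criterion for an outlier, and the group of 3 mice was not tested. The Cre difference at 7 months minus that at 4 months did not pass for any of the 6 genes. Among the other genes named it passed for 8. It was 1.45 for Gpnmb (adjusted p = 0.00695), 1.05 for Cdh4 (adjusted p = 0.00892) and 1.57 for the macrophage receptor Cd14 (adjusted p = 0.00423), all larger rises at 7 months. It was -0.86 for Hnf4a (adjusted p = 0.00815) and -0.72 for Acp5 (adjusted p = 0.0196, limma), whose Cre difference was 0.03 at 4 months and -0.69 at 7 months. Among the genes closest to Tfec within groups it was -1.09 for Sod3 (adjusted p = 0.0058), -1.20 for Mettl7b (adjusted p = 0.00377) and -0.93 for Igfbp4 (adjusted p = 0.00338). None of the 8 passed within arrays of both Y-linked kinds: Hnf4a passed within those of low values, Cd14 within those of high values, and the other 6 in neither. The value for Cdh4 was 0.49 with the mean of its entries (adjusted p = 0.0914), and that for Acp5 was -0.71 without Cre- mouse 2 at 7 months (adjusted p = 0.0575).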

How the results depend on the processing

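Of the calls of the 6 genes, that of Tfec at 7 months held in 11 of 12 alternatives and that of Cdh16 in 10 of 12. Cdh16 at 7 months was -0.25 after quantile normalization (adjusted p = 0.185) and -0.35 within arrays of high Y-linked values (adjusted p = 0.132). Tfec at 7 months was -0.40 within arrays of low Y-linked values (adjusted p = 0.21), and at 4 months it passed with median centring at -0.48. Uncalled differences changed sign as follows. After quantile normalization Tfe3 at 4 months was -0.0055. After median centring Tfe3 at 4 months was -0.0602 and Mitf between ages in Cre+ kidneys 0.0040. With array weights the difference of effects for Tfeb was -0.0008 and Mitf between ages in Cre+ kidneys 0.0156. Within arrays of high Y-linked values Tfe3 at 4 months was -0.13, Mitf at 4 months 0.15, Tfeb at 7 months 0.0114, the age differences in Cre- kidneys -0.0035 for Tfe3 and -0.0690 for Prcc, and those in Cre+ kidneys 0.0541 for Tfec and 0.0199 for Cdh16. Within arrays of low Y-linked values the differences of effects were -0.11 for Tfeb and 0.10 for Mitf, the age differences in Cre- kidneys 0.0777 for Tfeb and -0.0567 for Tfec, and that of Mitf in Cre+ kidneys 0.23. The causes were not tested.

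Counts over all genes moved by over 1.5 times as follows. The difference of effects gave 475 calls, 227 in the plain linear model, 734 with the Y-linked covariate, 69 within arrays of high and 88 within arrays of low Y-linked values. The count at 4 months was 478 and that at 7 months 3109 within arrays of low values, and between ages in Cre+ kidneys it was 1135 and 1170 within arrays of high and low values, where fewer mice were compared. The single call between ages in Cre- kidneys was 0 in the plain linear model, with 2 groups only, with the replicate block and within either kind of array.

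With each mouse left out, counts ranged from 469 to 1101 at 4 months, 225 to 482 for the difference of effects and 0 to 0 between ages in Cre- kidneys. The Cre differences ranged from -0.0236 to 0.1016 for Tfe3 at 4 months and from -0.48 to -0.33 for Cdh16 at 7 months, and the difference of effects from -0.0454 to 0.1129 for Tfeb and from -0.2073 to 0.0383 for Mitf. The age differences in Cre- kidneys ranged from -0.0558 to 0.1592 for Mitf, -0.0250 to 0.2016 for Tfec and -0.0983 to 0.1602 for Prcc, and those in Cre+ kidneys from -0.1156 to 0.0319 for Tfeb and -0.1345 to 0.0598 for Mitf.

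The replicate numbers of the titles did not pair the mice (correlations of deviations 0.19, -0.27, -0.25 and 0.19 at 4 months and -0.28, 0.22 and -0.06 at 7 months). With the replicate block the counts were 795 at 4 months and 4727 at 7 months, Tfec at 7 months was -0.59 (adjusted p = 0.00911), Cdh16 -0.43 (adjusted p = 0.0387), and no member's call changed. Of 94 calls of the other genes named (Cre differences and their change with age), 50 held under every alternative and with every mouse left out, and none changed direction.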
